A study of Rattus norvegicus with 20 samples.

Results

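Fjx1 and the large cadherins of the Fat and Dachsous families were examined in the white matter under the motor cortex and in the spinal cord of rats after cervical injury, with and without stimulation of the motor cortex. The members were found by gene symbol: Fjx1 (ENSRNOG00000005347), Fat1 (ENSRNOG00000030954), Fat2 (ENSRNOG00000012575), Fat3 (ENSRNOG00000011585), Fat4 (ENSRNOG00000028335) and Dchs1 (ENSRNOG00000031643), 6 of the 30443 genes listed. Each symbol occurred in 1 row, and 5 of the 6 members reached 1 FPKM (fragments scaled by transcript length and by the mapped reads of the library) in at least 1 library. Fat2 did not, and is given by its values only. Fjx1 was selected on measured values, namely a gap between control and stimulated animals in every region. Its stimulation difference is therefore a description with no test, and its cadherin partners were joined to it by function.

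RNA was taken from 4 adult female wild-type Long-Evans rats, an outbred strain, aged 6 to 8 months and weighing 275 to 350 grams. All 4 received a hemicontusion at cervical level 4 with a displacement of 0.7 mm. In all 4, 2 weeks later, an electrode array was implanted into the motor cortex contralateral to the injury, with its wire tips inside the cortex. A week after that, 2 animals were stimulated for 1 week (10 Hz, 5 hours a day, 5 minutes on and 2 minutes off, 80% of movement threshold), while 2 control animals were connected without current. Neither arm holds uninjured or unimplanted animals, and with 2 outbred animals an arm, the arm and the individual animal cannot be told apart. Region 1 was subcortical white matter under the implant and region 2 the matching piece of the opposite hemisphere. The cord was taken in regions 3, 4 and 5, rostral to the injury (about cervical levels 2 to 4), at the lesion (level 4) and caudal to it (about levels 4 to 6 by the labels, while the study's methods place this piece further caudal). Each of the 20 libraries is 1 region of 1 animal, with 2 control and 2 stimulated libraries per region.

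Fjx1, four-jointed box kinase 1, is the mammalian relative of Drosophila Four-jointed, a kinase of the Golgi that phosphorylates cadherin repeats of Fat and Dachsous while they are on their way to the cell surface. Fat and Dachsous proteins then bind each other between neighbouring cells, and in flies the modification tunes the strength of that binding. The system is known for aligning cells within a tissue (planar cell polarity) and for restraining growth through the Hippo kinases, which hold the co-activators Yap and Taz out of the nucleus. Fat4 and Dchs1 are the mammalian pair closest to the fly receptor and ligand. Fat1 is known for organising actin at cell contacts and in migrating cells, Fat3 for shaping the dendrites of retinal neurons, and Fat2 for its expression in cerebellar granule cells.

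The tissue labels were compared with marker genes. Oligodendrocyte Mbp had a median of 695 FPKM in the 8 white matter libraries and 4609 in the 12 cord libraries. Cortical excitatory neuron markers were abundant in the libraries labelled white matter: Slc17a7 had a median of 269 FPKM there and 0.851 in cord, and Neurod6 17.3 and 1.05. Glycine transporter Slc6a5, a cord marker, had medians of 0.414 and 32.4 FPKM. By the study's methods the dissection kept the white matter and left out the cortex. The part of the RNA with these markers in the region differences given here was not tested. Between 12497 and 13546 genes reached 1 FPKM per library. In bulk tissue, fewer cells of a type and less RNA per cell cannot be told apart.

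The sequence upstream of Fjx1 is shown because this gene carries the gap between the animals, with those of Fat1 and Fat3, the most abundant cadherins here, and of Fat4 for comparison. They are the 250 bases before the annotated start, 5′ to 3′, from RefSeq on GRCr8, a later build than the Rnor6 of the expression table: chr3:109231325-109231574 on the minus strand for Fjx1, chr16:54028610-54028859 (minus) for Fat1 and chr8:21555241-21555490 (minus), the first of 2 annotated starts, for Fat3, and chr2:123855039-123855288 (plus) for Fat4. RefSeq entries were matched for 5 of the 6 members. Capitals mark the motifs searched on both strands: CACGTG (E-box), GGAATG (TEAD) and GGGCGG (GC box), none of which overlapped another here.
Fjx1: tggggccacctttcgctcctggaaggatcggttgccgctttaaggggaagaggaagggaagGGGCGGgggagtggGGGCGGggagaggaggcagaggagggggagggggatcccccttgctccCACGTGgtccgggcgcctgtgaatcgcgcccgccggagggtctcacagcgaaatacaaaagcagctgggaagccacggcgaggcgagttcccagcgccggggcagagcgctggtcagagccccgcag
Fat1: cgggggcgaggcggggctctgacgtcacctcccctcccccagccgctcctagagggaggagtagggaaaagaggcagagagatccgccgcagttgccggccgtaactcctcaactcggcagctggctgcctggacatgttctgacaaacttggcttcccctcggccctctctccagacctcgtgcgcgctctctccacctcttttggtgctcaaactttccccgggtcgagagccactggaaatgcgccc
Fat3: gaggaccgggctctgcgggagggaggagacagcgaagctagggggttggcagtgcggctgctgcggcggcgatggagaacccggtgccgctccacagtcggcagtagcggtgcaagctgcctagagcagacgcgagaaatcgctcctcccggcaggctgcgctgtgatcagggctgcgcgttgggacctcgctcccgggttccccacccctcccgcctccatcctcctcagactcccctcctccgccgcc
Fat4: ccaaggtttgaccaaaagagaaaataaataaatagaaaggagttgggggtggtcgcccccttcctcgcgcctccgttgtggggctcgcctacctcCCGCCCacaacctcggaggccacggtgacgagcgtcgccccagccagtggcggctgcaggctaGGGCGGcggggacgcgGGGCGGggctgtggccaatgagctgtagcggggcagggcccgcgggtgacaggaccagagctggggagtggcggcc
The Fjx1 window held 1 CACGTG and 2 GGGCGG and no GGAATG. The Fat4 window held 3 GGGCGG, and the Fat1 and Fat3 windows held none of the 3 motifs. Over all 33469 such windows, 5.59% held CACGTG, 12.1% GGAATG and 30.5% GGGCGG. All 4 windows were rich in CpG, with 20 in Fjx1, 17 in Fat1, 23 in Fat3 and 21 in Fat4, against a median of 5. These matches describe letters and not sites in use.

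Fjx1 was expressed in both control animals and close to the lowest listed value in both stimulated animals, in all 5 regions. In region 1, the control libraries had 19.7 and 9.78 FPKM and the stimulated libraries 0.347 and 0.160. In region 2, the control libraries had 16.4 and 8.71 FPKM and the stimulated libraries 0.198 and 0.206. In white matter, therefore, the lowest control library was at least 28.2 times the highest stimulated library of its region.

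In the cord the control levels were lower, and the gap was as wide. Region 3 had 10.8 and 5.58 FPKM in the controls and 0.114 and 0.144 in the stimulated animals. At the lesion, in region 4, the controls had 10.2 and 5.62 FPKM, and both stimulated libraries were listed at 0.1, the value to which the deposited table raises everything below it. Region 5 had 11.8 and 5.81 FPKM in the controls and 0.192 and 0.125 in the stimulated animals. The arms did not overlap in any region. The reads were not analysed here, so whether fragments of Fjx1 went unaligned or uncounted in the stimulated animals was not tested.

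The control mean was 58.1, 62.0, 63.5 and 55.4 times the stimulated mean in regions 1, 2, 3 and 5, and at least 79.1 times in region 4. On the log2 scale the stimulated minus control difference was -5.88, -5.88, -5.92, -6.24 and -5.74 in regions 1 to 5, with the region 4 value a bound. These are the values on which the gene was selected. Fjx1 was the lowest of the 15210 genes kept in every region, and its mean over regions was -5.93, against -2.44 for the next gene, Zfp94. Stimulated libraries lay below control libraries in all 5 regions for 11 genes (0.0723%) and above them in all 5 for 21 (0.138%). After Fjx1, the largest mean difference among those 11 was -1.32 on the log2 scale, for AABR07027137.1.

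**Figure D1:**
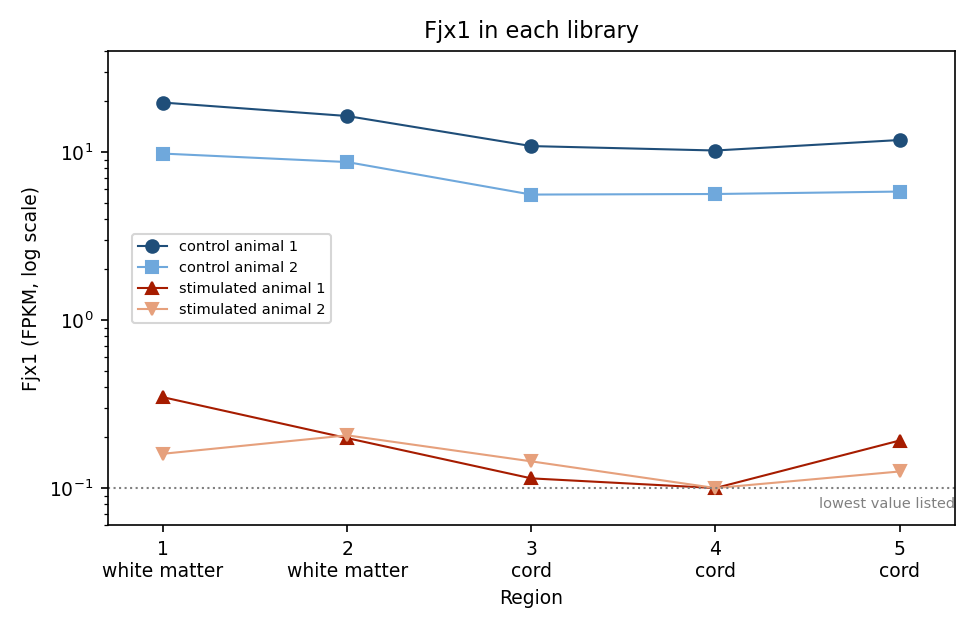
Fjx1 in FPKM on a log axis by region, with a point per library and a line per animal. The control animals lie between 5.58 and 19.7 FPKM and the stimulated animals between 0.1, the lowest value listed (dotted line), and 0.347.

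The control animals also differed from each other in Fjx1. Control animal 1 was 2.01, 1.88, 1.94, 1.81 and 2.03 times control animal 2 in regions 1 to 5, so the ratio was nearly constant over tissues dissected separately. Over the 5 regions Fjx1 had 13.8 ± 4.09 FPKM in control animal 1 and 7.10 ± 2.00 in control animal 2 (SD, n = 5 regions of 1 animal). Their mean log2 difference of 0.95 was larger than that of 99.2% of all genes kept, whose median absolute difference was 0.12. The same difference was 0.20 for Fat1, 0.01 for Fat3, 0.11 for Fat4 and 0.36 for Dchs1. In size these were larger than those of 76.2%, 5.42%, 45.3% and 91.2% of all genes kept. With its sign, the median difference of all genes was 0.10. The stimulated animals differed by 0.27 for Fjx1, at values near 0.1.

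Among regions, Fjx1 followed the same broad order in both control animals. Region 1 was highest and region 2 next, region 5 led the cord, and regions 3 and 4 were lowest, in the reverse order in control animal 2. White matter had 1.65 times the cord level in control animal 1 and 1.63 times in control animal 2. With a mean per region and no term for the animal, limma gave a white matter minus cord difference of 0.75 on the log2 scale (SE 1.43, adjusted p = 0.646), a fit whose spread holds the gap between the 4 animals. With the animal as a block, which pairs libraries of the same rat, the difference was 0.75 (SE 0.12, adjusted p = 3.27e-05 by limma). In the 10 control libraries alone, with the same block, it was 0.71 (SE 0.04, adjusted p = 1.58e-05 by limma). This choice of libraries was made after the data were seen, and it kept the only arm in which Fjx1 reached 1 FPKM. Its 4 white matter and 6 cord libraries come from 2 animals, so its SE reflects the spread of regions within these 2. The block fit over all libraries includes the stimulated values near 0.1, where a difference between tissues is poorly measured. Fjx1 did not pass the threshold between region 1 and region 2 or between any pair of cord regions in the fits without or with the block.

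The genes that flank Fjx1 on the chromosome, in the order of the RefSeq annotation, were compared in the same libraries. Trim44, the neighbour on one side, ranged from 18.5 to 27.5 FPKM in the controls (median 22.8) and from 14.2 to 30.0 in the stimulated animals (median 24.7). Pamr1, on the other side, ranged from 5.75 to 15.3 FPKM (median 8.14) and from 7.07 to 19.0 (median 9.58). Neither was below the controls in any region without overlap, and Pamr1 lay above them in 4 of 5. Over 10 neighbours, 5 on each side, the mean log2 difference ran from -0.12 for Commd9 to 0.49 for Cd44.

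**Figure D2:**
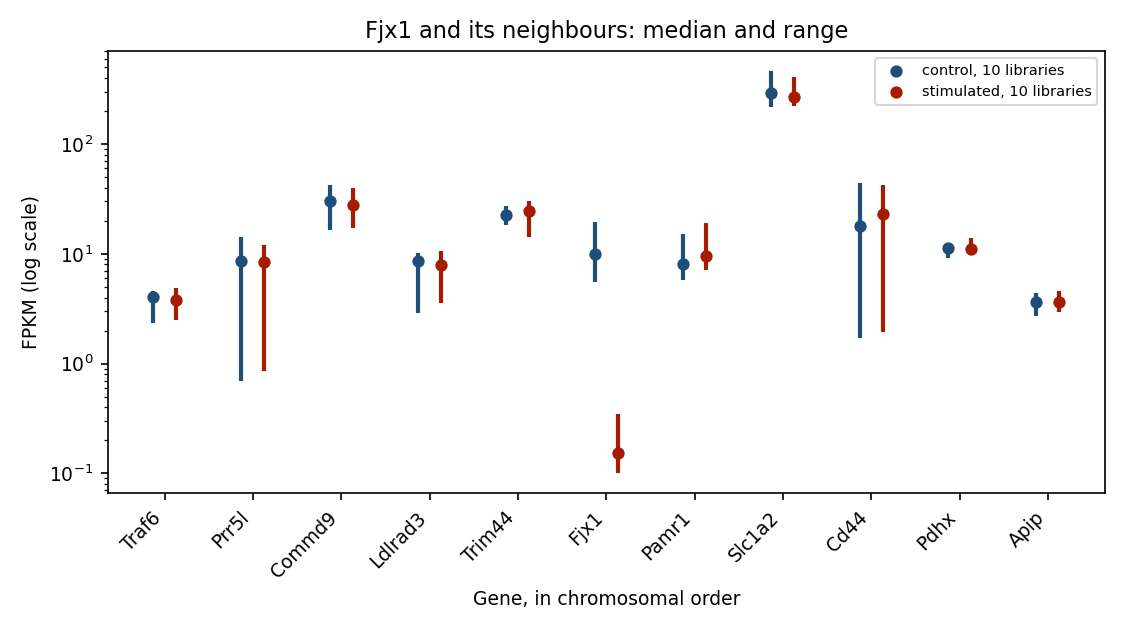
Median (point) and range (bar) in FPKM on a log axis of Fjx1 and 5 named protein-coding neighbours on each side, in chromosomal order, for 10 control and 10 stimulated libraries. The ranges of the arms are apart for Fjx1, at 5.58 to 19.7 against 0.1 to 0.347 FPKM, and overlap for each of the 10 neighbours.

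The genes with the pattern most like that of Fjx1 over the 20 libraries were LOC688613 (Pearson r = 0.90), Rn60_10_0702.4 (0.85), LOC102550180 (0.83), Nt5dc1 (0.83) and Slc35c2 (0.83), a relative of a GDP-fucose transporter. They had far smaller gaps. LOC688613 ranged from 6.32 to 11.3 FPKM in the controls (median 9.89) and from 3.24 to 6.51 in the stimulated animals (median 4.49). Nt5dc1 ranged from 2.83 to 5.54 FPKM (median 4.55) and from 2.19 to 3.03 (median 2.66). The mean log2 difference of the 5 genes lay between -1.06 and -0.48, and stimulated libraries lay below controls in 4 regions for LOC102550180 and in 5 for the other four. Fjx1 is high in the controls and low in the stimulated animals, so ranking by r with it favours genes that part the arms. The order of the arms in these 5 genes follows from that choice and is no separate result. Libraries of 1 animal share their source, so these correlations are descriptions.

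No cadherin had a gap between the arms like that of Fjx1. Over the 20 libraries Pearson r with Fjx1 was -0.04 for Fat1, 0.12 for Fat2, 0.12 for Fat3, 0.17 for Fat4 and -0.12 for Dchs1. After the mean of each region was removed, which leaves the arms and animals, r was 0.22 for Fat1, 0.62 for Fat2, 0.37 for Fat3, 0.47 for Fat4 and -0.02 for Dchs1. None of the 4 cadherins kept passed the threshold for stimulation in any region or over the mean of the regions. The limma test gave 0 of 4 at an adjusted p of 0.05 in each region, and at an unadjusted p of 0.05 it gave 1 in region 1 (Fat4) and 0 in the other regions and over the means. At that unadjusted threshold 5.44%, 1.41%, 3.43%, 2.24% and 3.59% of all genes passed in regions 1 to 5, and 5.33% over the means of the animals. At the adjusted threshold the same test called 0% of all genes in each of regions 1 to 4, 0.0197% in region 5 and 0.158% over the means, so few genes of any kind were called. Without stimulated animal 1, 228, 548, 8, 147 and 466 genes passed in regions 1, 2, 4 and 5 and over the means. Without stimulated animal 2 the counts were 15, 10, 21, 119 and 32, without control animal 1 they were 104 in region 4 and 146 over the means, and without control animal 2 they were 140 and 27. In region 5, 0 genes passed without control animal 1 and 0 without control animal 2. In region 5, 443 genes passed with the replicate number as a block. None of the 4 cadherins was among them.

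Over the means of the animals, stimulated minus control was -0.05 on the log2 scale for Fat1 (SE 0.12, 95% interval -0.30 to 0.20) and -0.07 for Fat3 (SE 0.11, -0.30 to 0.16). It was -0.16 for Fat4 (SE 0.16, -0.51 to 0.18) and 0.03 for Dchs1 (SE 0.15, -0.29 to 0.35). The adjusted p was 1.00 by limma for each of the 4. The intervals do not show that the arms were equal, but all 4 lie within 0.51 of 0, while the Fjx1 difference was -5.93.

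**Figure D3:**
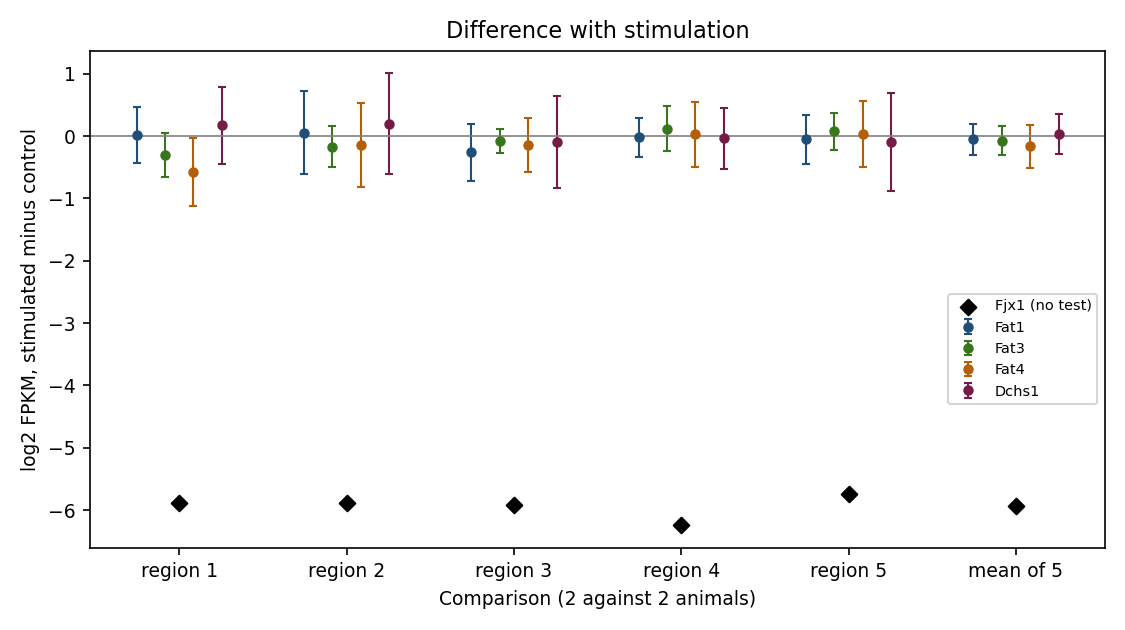
Stimulated minus control in log2 FPKM for each region and for the mean of the 5 regions, in 2 against 2 animals. Points with bars are limma estimates with 95% intervals for Fat1, Fat3, Fat4 and Dchs1, and diamonds are Fjx1 with no test, its region 4 value being a bound. Fjx1 lies between -6.24 and -5.74, and the cadherins lie between -0.58 and 0.20.

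Fat4, the receptor of the pair with Dchs1, showed its widest gap under the implant. In region 1 it had 1.60 and 1.40 FPKM in the controls and 1.01 and 0.993 in the stimulated animals, which did not overlap. The difference was -0.58 on the log2 scale (SE 0.19, adjusted p = 0.712 by limma). In region 2 the controls had 1.14 and 1.03 FPKM and the stimulated animals 0.862 and 1.11, and in the cord the arms overlapped in regions 3, 4 and 5, where Fat4 ranged from 1.31 to 2.02 FPKM.

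Fat3 was lower in the stimulated animals without overlap in regions 1, 2 and 3 and higher in region 4. In region 1 the controls had 6.94 and 6.96 FPKM and the stimulated animals 5.85 and 5.41, a difference of -0.30 on the log2 scale (SE 0.12, adjusted p = 0.712 by limma). In region 2 the values were 7.25 and 6.96 against 6.70 and 5.96 FPKM, and in region 3 they were 8.54 and 8.81 against 8.28 and 8.17. At the lesion they were 6.35 and 6.68 in the controls against 7.02 and 7.12 in the stimulated animals. The largest of the 4 gaps was 1.23-fold, and none passed the threshold.

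Of the 4 cadherins kept, 2 did not overlap between arms in each of regions 1 and 3, 1 did not in each of regions 2 and 4, and in region 5 all 4 overlapped. Over all genes kept, 40.6%, 27.0%, 29.9%, 20.2% and 24.6% did not overlap in the same regions, so these counts are near the background. In region 1, several sums of marker genes differed between the arms beside Fat3 and Fat4. The 4 astrocyte markers summed to 571 to 614 FPKM in the controls and 959 to 1130 in the stimulated animals, and the 4 microglia and macrophage markers to 83.1 to 94.2 and 132 to 187. The 5 cortical excitatory neuron markers summed to 590 to 598 and 411 to 538 FPKM, while the 4 oligodendrocyte markers overlapped, at 1540 to 1685 and 1340 to 2637. In region 2, where Fat3 did not overlap, every marker sum overlapped except that of the 3 Schwann cell markers. It was low, at 0.388 to 0.394 FPKM in the controls and 0.414 to 0.708 in the stimulated animals. In region 3, beside Fat1 and Fat3, the 4 spinal cord neuron markers summed to 61.4 to 62.4 FPKM in the controls and 52.1 to 55.2 in the stimulated animals. In region 4, beside Fat3, the 3 Schwann cell markers summed to 103 to 114 and 75.4 to 78.2 FPKM, and the 4 fibroblast and meninges markers to 46.1 to 49.5 and 27.9 to 42.3. In region 4 the sums of cortical excitatory and of striatal neuron markers were higher in the stimulated animals, without overlap. In region 5, where all 4 cadherins overlapped, marker sums also differed. The Schwann cell markers there summed to 83.5 to 105 and 224 to 227 FPKM. The fibroblast and meninges markers summed to 36.8 to 37.1 and 66.7 to 96.5, and the spinal cord neuron markers to 76.5 to 81.1 and 71.9 to 72.1. The part of these shifts in the values of the cadherins was not tested.

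Fat1 and Dchs1 overlapped between the arms nearly everywhere. Fat1 did not overlap in region 3, with 11.0 and 8.50 FPKM in the controls against 7.74 and 8.44 in the stimulated animals, but the lowest control and the highest stimulated library differed by a factor of 1.01. Dchs1, the ligand, overlapped in all 5 regions. In region 4 it had 5.49 and 4.52 FPKM in the controls and 4.63 and 5.09 in the stimulated animals.

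Fat2 was listed at 0.1 FPKM in all 8 white matter libraries and in 1 library of region 3, 9 libraries in all. Elsewhere it stayed low, with its highest level at the lesion. There the controls had 0.347 and 0.421 FPKM and the stimulated animals 0.222 and 0.314. In region 3 it had 0.189 and 0.181 FPKM against 0.1 and 0.104, and in region 5 0.279 and 0.282 against 0.196 and 0.271. The arms did not overlap in these 3 regions, but the number of fragments behind values this close to the lowest listed one is not given in the table.

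**Figure D4:**
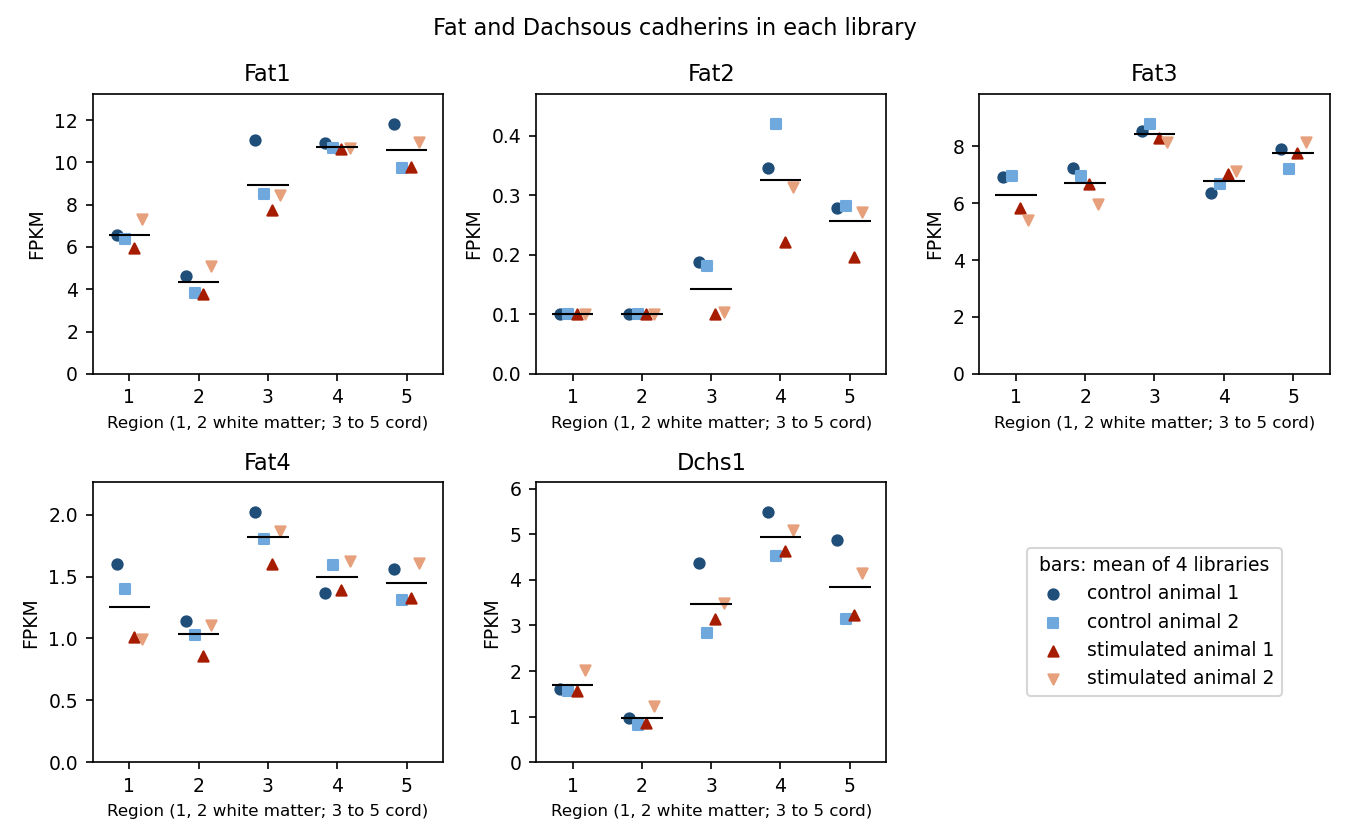
Fat1, Fat2, Fat3, Fat4 and Dchs1 in FPKM by region, with a point per library and a bar at the mean per region (n = 4). Control and stimulated points mix in most panels, while Fat1 and Dchs1 are lower in regions 1 and 2 (white matter) than in regions 3 to 5 (cord).

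The tissues separated Fat1 and Dchs1 far more clearly than the arms did. For Fat3 and Fat4 this did not hold in size. Their log2 differences were -0.24 and -0.49 between tissues, and -0.30 and -0.58 between arms in region 1. The tissue fit also rests on more libraries than the fit of a region. FPKM is scaled by transcript length, so levels of different genes can be set side by side. In the cord the order of mean levels was Fat1 (10.1 ± 1.26 FPKM), Fat3 (7.67 ± 0.777), Dchs1 (4.08 ± 0.880), Fat4 (1.59 ± 0.223) and Fat2 (0.242 ± 0.0954; SD, n = 12 libraries of 4 animals). In white matter it was Fat3 (6.50 ± 0.667 FPKM), Fat1 (5.44 ± 1.32), Dchs1 (1.33 ± 0.425) and Fat4 (1.14 ± 0.242; SD, n = 8 libraries of 4 animals). Fat1 exceeded Fat3 in 10 of 12 cord libraries and in 2 of 8 white matter libraries. Dchs1 exceeded Fat4 in all 12 cord libraries, by a median ratio of 2.51, but in 5 of 8 white matter libraries, with a median ratio of 1.06. The members next to each other in white matter, Dchs1 and Fat4, thus did not differ beyond their spread, nor did Fat1 and Fat3 in region 1.

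All 4 cadherins kept were lower in white matter than in cord. The region fits here and below had no term for the animal unless a block is named. They thus took the 20 libraries as independent, though these come from 4 rats. With the animal as block all 4 cadherins also passed, with an adjusted p by limma of 0.00104 for Fat3 and lower for the others. Dchs1 fell most. It ranged from 0.829 to 2.03 FPKM in white matter (median 1.40) and from 2.84 to 5.49 in cord (median 4.26), a difference of -1.65 on the log2 scale (SE 0.10, adjusted p = 4.45e-11 by limma). Its ranges in the 2 tissues did not overlap. Fat1 ranged from 3.75 to 7.30 FPKM (median 5.51) and from 7.74 to 11.8 (median 10.7), a difference of -0.92 (SE 0.07, adjusted p = 1.24e-09 by limma), again without overlap.

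Fat4 ranged from 0.862 to 1.60 FPKM in white matter (median 1.07) and from 1.31 to 2.02 in cord (median 1.60), and the ranges overlapped. Its difference was -0.49 on the log2 scale (SE 0.10, adjusted p = 0.000217 by limma). Fat3 ranged from 5.41 to 7.25 FPKM (median 6.82) and from 6.35 to 8.81 (median 7.83), which overlapped widely, with a difference of -0.24 (SE 0.05, adjusted p = 0.000733 by limma). In the 10 control libraries alone the Fat3 difference was -0.10 (adjusted p = 0.0980 by limma with the animal as block), which did not pass.

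Of the 5 members tested, 4 were lower and 0 higher at the threshold, and with the animal as block Fjx1 was higher. Over all genes, 72.2% passed, 47.1% lower and 25.0% higher, and the median gene stood at -0.18 on the log2 scale. Relative to that median the differences were -1.47 for Dchs1, -0.74 for Fat1, -0.31 for Fat4 and -0.06 for Fat3. Quantile normalization moved the median to -0.04 and the calls to 6018 lower and 5054 higher, from 7169 and 3808. The Fat3 and Fat4 differences were then -0.16 and -0.26 (adjusted p = 0.0494 and 0.0470 by limma). In every animal taken alone, each of these 4 cadherins had a lower mean log2 level in white matter than in cord. Those levels are not set against the median gene. In the 10 control libraries the median gene stood at -0.21, and Fat3, at -0.10, was not below it.

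**Figure D5:**
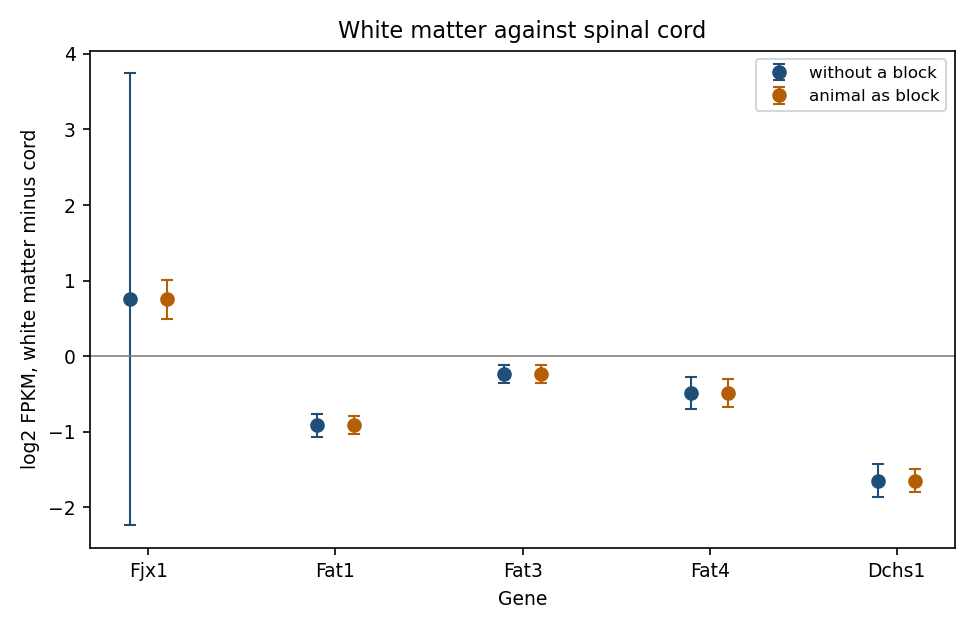
White matter minus cord in log2 FPKM for the 5 members kept, as limma estimates with 95% intervals over 20 libraries, without a block and with the animal as block. Fat1, Fat3, Fat4 and Dchs1 lie below 0 in both fits, and the Fjx1 interval, -2.24 to 3.74 without a block, narrows to lie above 0 with it.

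Within white matter, Fat1 and Dchs1 were higher under the implant than in the other hemisphere. Fat1 had 6.59 and 6.40 FPKM in the controls and 5.93 and 7.30 in the stimulated animals in region 1, and 4.65, 3.83, 3.75 and 5.09 in region 2, in the same order. The difference was 0.61 on the log2 scale (SE 0.11, adjusted p = 0.00485 by limma). Dchs1 had 1.60, 1.56, 1.56 and 2.03 FPKM in region 1 and 0.979, 0.829, 0.867 and 1.23 in region 2, a difference of 0.80 (SE 0.16, adjusted p = 0.00771 by limma). Every region 1 library exceeded every region 2 library for both genes. Of the 5 members tested 2 passed, against 8.61% of all genes. Both calls were lost without control animal 2 or without stimulated animal 1, and the Dchs1 call without control animal 1.

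Within the cord, Fat3 was higher rostral to the injury than at the lesion, and Dchs1 was lower. Fat3 had a mean of 8.45 ± 0.283 FPKM in region 3 and 6.79 ± 0.351 in region 4 (SD, n = 4), a difference of 0.32 on the log2 scale (SE 0.08, adjusted p = 0.0150 by limma), without overlap. Dchs1 had 3.46 ± 0.662 and 4.93 ± 0.443 FPKM, a difference of -0.52 (SE 0.16, adjusted p = 0.0300 by limma), also without overlap. Of the 5 members 2 passed, against 19.6% of all genes. Fat1, at 8.93 ± 1.45 and 10.7 ± 0.130 FPKM, passed only with the animal as block or after quantile normalization (-0.28, adjusted p = 0.0884 without and 0.0309 with the block, by limma). None of the 5 members passed without control animal 1, control animal 2 or stimulated animal 1.

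The lesion and the caudal cord differed less. Between regions 4 and 5, 0 of the 5 members passed, against 7.99% of all genes. With the animal as block Dchs1 was higher at the lesion (0.38 on the log2 scale, SE 0.11, adjusted p = 0.0404 by limma). Between regions 3 and 5, 0 of 5 passed, against 4.32% of all genes.

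Fat1 and Dchs1 had the most similar patterns among the cadherins, with Pearson r = 0.98 over the 20 libraries and 0.87 after the mean of each region was removed. In all 5 regions, stimulated animal 2 was above stimulated animal 1 and control animal 1 above control animal 2 for both. Fat3 and Fat4 had r = 0.74, and 0.66 after centring. Fat3 and Dchs1 had r = 0.39 and -0.30. The libraries share animals and regions, so these are descriptions.

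The wider pathway was described by 5 lists: kinases of the Golgi and secretory route, core planar cell polarity genes, Hippo kinases and effectors, targets of Yap and Taz, and intracellular partners of Fat and Dachsous. Of 55 genes listed, 48 were tested. Dchs2, the second Dachsous gene, and Dvl2 were not analysed here, and Tead2, Tead3, Tead4, Ankrd1 and Atn1 did not reach 1 FPKM. For stimulation, 0 of the 48 passed the limma test in any region or over the means of the animals, with 3, 0, 1, 0 and 0 at an unadjusted p of 0.05 in regions 1 to 5 and 1 over the means. These counts are near or below the shares of all genes at that threshold given above. Their median log2 difference over the means was 0.02, beside 0.01 for all genes.

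Between tissues, 12 of the 48 were higher in white matter (25%) and 23 lower (47.9%), near the 25.0% and 47.1% of all genes. These shares are the background for each list below. The kinases related to Fjx1 had 0 of 7 higher and 3 lower, with a median of -0.16. Fam198a had 0.580 ± 0.183 FPKM in white matter and 2.69 ± 0.557 in cord, a log2 difference of -2.26 (SE 0.13, adjusted p = 1.04e-11 by limma). Fam20a had 0.727 ± 0.130 and 2.21 ± 0.204 FPKM, a difference of -1.62 (SE 0.07, adjusted p = 3.99e-13). Fam20c, the kinase of secreted phosphoproteins, was the third to fall, by 0.34. Fam20b, a xylose kinase of proteoglycan synthesis, had 15.3 ± 1.01 and 15.6 ± 1.42 FPKM and did not pass.

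The core planar cell polarity genes were split, with 6 of 14 higher, 4 lower and a median of 0.15. Prickle2 rose by 1.04 and Prickle1 by 1.00 on the log2 scale in white matter, and the membrane proteins Vangl1 and Vangl2 fell by 1.09 and 0.69. Prickle2 had 27.7 ± 3.20 FPKM in white matter and 13.5 ± 1.09 in cord.

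Of the Hippo kinases and effectors, 4 of 14 were higher and 9 lower, with a median of -0.34. Yap1, the co-activator, had 3.90 ± 0.916 FPKM in white matter and 10.6 ± 1.46 in cord, a log2 difference of -1.47 (SE 0.09, adjusted p = 5.49e-11 by limma). Lats2, the kinase that phosphorylates Yap, had a difference of -1.03 (SE 0.06, adjusted p = 3.64e-11). Wwc1, which encodes the upstream scaffold Kibra, rose by 1.27 and Frmd6 by 0.68.

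Over all genes 25.0% were higher and 47.1% lower, with a median of -0.18. Among targets of Yap and Taz, 0 of 7 were higher and 4 lower, with a median of -0.71. Lats2 also stands in this list, and Amotl2 fell by 0.87. Ctgf and Cyr61, often used as readouts of Yap, did not pass, with log2 differences of 0.07 (SE 0.13) and -0.10 (SE 0.44). Of the intracellular partners, 2 of 7 were higher and 4 lower, with a median of -0.37. Lix1l fell by 1.29 and Mpp5, the Pals1 scaffold, by 0.92, while Evl, an Ena/VASP protein of actin filaments, rose by 0.29 and Mpdz by 0.12. Enah and Vasp, also Ena/VASP genes, were lower at the threshold, with log2 differences of -0.37 and -0.68.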

How the data were processed

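RNA-seq values of 20 libraries (5 regions of 4 rats) were analysed. The authors depleted ribosomal RNA, sequenced paired reads and aligned them to Rnor6, and the submitters' processing notes name TopHat2 2.1.0, Cufflinks 2.2.1 and MultiQC 1.6. The authors deposited FPKM values per gene, with everything below 0.1 raised to 0.1 (39.7% of values), and 0 columns were without a sample. The table holds no read numbers, so the depth behind a value is unknown and precision comes from the spread between animals only. The strand used in counting is not given in the sources used here.

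Values were log2-transformed, and the 15210 genes with at least 1 FPKM in any library were kept. The stimulation test used limma 3.58.1 with R 4.3.3 (lmFit, eBayes with trend), fitted to the 4 libraries of a region or to the means of the 4 animals, and for regions to all 20 libraries. The region fits had no term for the animal unless a block is named. Adjusted p is the Benjamini-Hochberg value over every gene tested, called at 0.05. All tests were two-sided. Tables and plots used Python 3.11.15, pandas 2.3.3, numpy 2.4.6, scipy 1.17.1 and matplotlib 3.10.9. On simulated data of 15210 genes, with 200 changed by a log2 fold change of 2, the fits recovered 73.5% (stimulation in 1 region), 92% (means of animals) and 98.5% (white matter against cord). False calls were 13 of 160, 11 of 195 and 5 of 202. The simulated libraries were independent, with no effect shared within an animal, unlike the data. The change added was far larger than the cadherin differences with stimulation, so recovery of changes of their size was not tested.

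The members, the gene lists and the markers were chosen with earlier results of these data known. The genes named were the members, the 5 genes with the highest Pearson r with Fjx1 among those with a mean of at least 1 FPKM, and, of each pathway list, every gene past the threshold for stimulation and the 2 with the largest log2 difference in each direction past the threshold between tissues. Zfp94, AABR07027137.1, Fam20b, Fam20c, Ctgf, Cyr61, Enah, Vasp and the neighbours of Fjx1 were named after their values were seen. Neighbours were taken from the order of named protein-coding genes in RefSeq on GRCr8.

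Libraries of the same animal pair regions by their titles, and the deviations of paired libraries correlated between -0.14 and 0.65. Alternatives were another pseudocount, other filters, quantile normalization, eBayes without a trend, blocks, a model of all libraries, means over some regions and leaving out each animal.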

Additional observations from a re-analysis of the deposited data

Results flagged for a closer look

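In 3 of the 28 groups of 4 libraries of a region that were checked, 1 library stood apart from the other three by the gap test, where chance gives about 1 group in 20. Fat1 in region 4 had 10.9 FPKM in control animal 1, with the nearest library at 10.7, which is a narrow spread. Fat2 in region 5 had 0.196 FPKM in stimulated animal 1, with the nearest at 0.271, both close to the lowest listed value. Dchs1 in region 1 had 2.03 FPKM in stimulated animal 2, with the nearest at 1.60.

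Fat3 lay below the controls in both stimulated libraries of regions 1, 2 and 3 and above them in both of region 4. Its stimulation difference was lower than that at the lesion by 0.42 in region 1, by 0.29 in region 2 and by 0.20 in region 3 on the log2 scale (-0.42, -0.29 and -0.20). None of these differences between regions was tested.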

How the results depend on the processing

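The cadherin results for stimulation had 0 calls in every region and over all regions under each alternative run, and the smallest adjusted p among 272 values was 0.108. No sign was called, and 32 of these values crossed 0. Quantile normalization gave -0.00073 and -0.083 for Fat1 in regions 1 and 2, -0.017 and -0.037 for Dchs1 in region 2 and over all regions, and -0.10 for Fat4 in region 5. The mean over the 3 cord regions gave 0.039 for Fat3 and -0.074 for Dchs1, the mean over the 2 white matter regions 0.036 for Fat1, and the mean over regions 1, 3, 4 and 5, added after seeing the data, -0.013 for Dchs1. With each animal left out in turn, Fat1 ran from -0.13 to 0.17 in region 1, from -0.17 to 0.27 in region 2, from -0.034 to 0.00085 in region 4, from -0.19 to 0.090 in region 5, from -0.15 to 0.052 over all regions, and Dchs1 ran from -0.015 to 0.36 in region 1, from -0.055 to 0.45 in region 2, from -0.40 to 0.22 in region 3, from -0.18 to 0.10 in region 4, from -0.41 to 0.22 in region 5, from -0.15 to 0.21 over all regions, and Fat4 ran from -0.33 to 0.030 in region 2, from -0.086 to 0.14 in region 4, from -0.11 to 0.17 in region 5. For stimulation, Fjx1 kept its direction under every alternative run, which follows from its selection on a gap in every region. Its mean difference over regions was -3.19 with log2(FPKM + 1), and the spread with an animal left out was -6.41 to -5.46. Of the 300 values for members between regions, 273 kept their direction and side of the threshold. Quantile normalization gave -0.088 for Fjx1 and -0.00060 for Fat4 between regions 1 and 2. With each animal left out in turn, Fat1 ran from -0.010 to 0.073 for region 4 minus 5, and Fat4 ran from -0.036 to 0.12 for region 4 minus 5, and Fjx1 ran from -0.31 to 0.0069 for region 3 minus 5. Past the threshold, leaving out an animal gave 0 to 2 members between regions 1 and 2 and 0 to 2 between regions 3 and 4. Between regions 3 and 4, 1 member passed with no filter, with means per region and arm, and in the 10 control libraries with the animal as block, and between regions 4 and 5, 1 passed with the animal as block. By Spearman correlation, 3 of the 5 genes most like Fjx1 were again among the 5 highest, and 4 with values centred by region. The replicate numbers of stimulated and control animals name different rats, and same-numbered deviations correlated between -0.21 and 0.32 over the regions. A fit with that replicate block changed no cadherin call for stimulation and gave adjusted p-values from 0.756 to 1.00. The count of all genes past the threshold for stimulation was 0 to 228, 0 to 548, 0 to 3, 0 to 140 and 0 to 443 in regions 1 to 5 over the alternatives, and 0 to 466 over the means of the animals. With an animal left out, the lone library of an arm is assumed to vary like the other arm. The cause of these changes was not tested. Depth per gene is unknown, and 2 animals per arm limit the precision.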

Other observations

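The gap between tissues was wider in both stimulated animals than in both controls for Fat3 and Fat4, a pattern seen after the values were examined and not tested. White matter minus cord on the log2 scale was -0.09 and -0.11 for Fat3 in control animals 1 and 2, and -0.29 and -0.46 in stimulated animals 1 and 2. For Fat4 it was -0.27 and -0.37 in the controls and -0.62 and -0.70 in the stimulated animals. Mean cord levels of Fat4 overlapped between the arms, at 1.65 and 1.57 FPKM against 1.44 and 1.70, while mean white matter levels were 1.37 and 1.21 against 0.937 and 1.05.

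The ratio of Fat1 to Dchs1 differed between the tissues. It ran from 3.61 to 4.75 over the 8 white matter libraries and from 1.99 to 3.09 over the 12 cord libraries, so the ranges did not overlap.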
